A study of Mus musculus with 24 samples.

Results

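General epithelial genes are a set of 10 genes whose products are shared by most epithelia: Epcam, Cdh1, Esrp1, Esrp2, Ap1m2, Rab25, Grhl2, Krt8, Krt18 and Krt19. They were chosen by name, and each matched exactly 1 row among the 55536 genes of the expression table. Their levels were followed over 24 bulk RNA sequencing libraries of mouse lung and small intestine taken at E11.5, as a gauge of how much epithelial RNA each library held. In bulk tissue, fewer epithelial cells and less of an RNA per epithelial cell cannot be told apart.

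At this stage both organs are tubes of endoderm-derived epithelium wrapped in mesenchyme, with mesothelium on the outside. Epithelial cells are held together by E-cadherin and joined by tight junctions and desmosomes, and their intermediate filaments are built from pairs of type I and type II keratins. Factors of the Grainyhead family keep junction genes active, whereas Zeb, Snail and Twist factors repress many of the same genes when epithelial cells become mesenchymal. Keratins 7, 8, 18 and 19 are also made by mesothelium, so these genes mark simple epithelia and their relatives rather than endoderm alone.

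The study asked what losing centrioles or cilia in the epithelium does to gene expression. All embryos carried ShhCre, a Cre recombinase under the control of Shh, a gene of the endodermal epithelium in both organs. The control genotype was ShhCre Cenpj+/lox, the Cenpj mutant genotype was ShhCre Cenpj-/lox and the Ift88 mutant genotype was ShhCre Ift88-/lox, with 4 libraries of each genotype from each organ. Cenpj encodes a protein needed to build centrioles, and Ift88 encodes a part of the transport machinery that builds cilia. Control epithelium was thus already down to a single intact Cenpj copy, and tissue outside the ShhCre domain was heterozygous for Cenpj or Ift88 in the mutants. The same control libraries served both mutants, so comparisons with control are not independent of each other. The labels do not state whether replicates are separate embryos, and the p-values measure only the spread between these libraries.

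Values are normalized counts, that is, reads per gene divided by a factor for each library. Recovered totals were 96.12 to 120.88 M reads per library. Nkx2-1, the lung epithelial regulator, stood at 2977 to 15688.5 in the 12 lung libraries and was listed at 0 in 11 of 12 intestine libraries. Cdx2, the intestinal regulator, stood at 534 to 3345 in the intestine libraries and was listed at 0 in 11 of 12 lung libraries. Cenpj had 2133 to 2958 normalized counts in lung Cenpj mutants against 2259 to 4164 in lung controls, and 2084 to 3114 against 2674 to 4537 in intestine. Ift88 had 1730.4 to 2442 in lung Ift88 mutants against 2352 to 3059 in lung controls, and 1581 to 2155 against 2357 to 2844 in intestine. Both targeted genes were lower on average in their own mutants, with adjusted p of 0.339 and 0.878 for Cenpj and 0.166 and 0.155 for Ift88 in lung and intestine (limma). The libraries fell into 2 kinds by the small nuclear RNA Rn7sk: 10 libraries held 974.8 to 7113 normalized counts of it and the other 14 held 0 to 248. The 10 were all 8 Cenpj mutants, lung control 3 and intestine control 2, so library kind goes with the Cenpj genotype, and Cenpj mutants and Ift88 mutants were wholly of different kinds.

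In the coordinates of the expression table (mm10, GRCm38), Epcam lies at chr17:87635979-87651106, Rab25 at chr3:88542029-88548300, Ap1m2 at chr9:21294275-21312337, Esrp1 at chr4:11331933-11386783 and Krt19 at chr11:100140810-100148665. Cdh1 at chr8:106603351-106670246 and Esrp2 at chr8:106130319-106136974 share a chromosome. Krt8 at chr15:101996711-102004342 and Krt18 at chr15:102028216-102032026 are neighbours on opposite strands, and Grhl2 lies on the same chromosome at chr15:37233036-37363569.

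Promoter sequences from RefSeq (GRCm38.p6, 250 bases before to 50 after the gene start) matched 5 of the 10 genes by symbol: Epcam, Ap1m2, Rab25, Krt8 and Krt18. They were searched on both strands for the Grainyhead site AACCGGTT, for its looser form AACNNGTT, which contains it, and for CACCTG, the E-box bound by Zeb and Snail factors. The E-box was found in all 5 promoters, against 20.2% of 32851 promoters of the same length. The looser Grainyhead form was found in the Rab25 promoter alone, against 4.2% of all promoters, and the exact site in none of the 5, against 0.146%. A match describes the letters in this window and is not evidence of binding. The 4 promoters printed here are those of 2 genes that rose and fell together between libraries (Epcam and Ap1m2) and of 2 that followed them less closely (Rab25 and Krt18). Capitals mark E-boxes and, in Rab25, also the Grainyhead-like site AACCTGTT. The windows are chr17:87635729-87636028 on the plus strand for Epcam, chr9:21312284-21312583 on the minus strand for Ap1m2, chr3:88548230-88548529 on the minus strand for Rab25 and chr15:102027966-102028265 on the plus strand for Krt18.
Epcam: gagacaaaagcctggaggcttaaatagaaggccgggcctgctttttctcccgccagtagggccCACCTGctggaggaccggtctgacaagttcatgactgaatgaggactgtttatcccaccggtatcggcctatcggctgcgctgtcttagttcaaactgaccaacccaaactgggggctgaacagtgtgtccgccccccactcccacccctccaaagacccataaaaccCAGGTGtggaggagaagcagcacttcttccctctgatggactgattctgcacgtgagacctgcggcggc
Ap1m2: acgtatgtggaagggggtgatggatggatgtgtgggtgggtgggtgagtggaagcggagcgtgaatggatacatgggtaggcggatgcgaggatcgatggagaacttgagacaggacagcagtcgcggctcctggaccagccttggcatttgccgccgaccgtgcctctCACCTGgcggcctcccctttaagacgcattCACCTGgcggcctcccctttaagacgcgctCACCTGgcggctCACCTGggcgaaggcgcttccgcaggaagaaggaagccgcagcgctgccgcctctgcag
Rab25: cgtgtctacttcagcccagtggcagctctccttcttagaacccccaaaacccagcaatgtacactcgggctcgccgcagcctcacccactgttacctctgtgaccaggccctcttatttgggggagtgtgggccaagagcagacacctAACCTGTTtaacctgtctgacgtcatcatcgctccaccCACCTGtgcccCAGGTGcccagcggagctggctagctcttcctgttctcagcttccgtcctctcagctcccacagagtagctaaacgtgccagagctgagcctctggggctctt
Krt18: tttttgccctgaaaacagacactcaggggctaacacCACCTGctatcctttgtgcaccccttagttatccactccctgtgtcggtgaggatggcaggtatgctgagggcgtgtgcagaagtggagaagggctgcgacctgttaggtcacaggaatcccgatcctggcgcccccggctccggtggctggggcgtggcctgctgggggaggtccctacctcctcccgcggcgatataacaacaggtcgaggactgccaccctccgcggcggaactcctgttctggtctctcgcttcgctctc
The Ap1m2 window holds 4 E-boxes, the Epcam and Rab25 windows 2 each and the Krt18 window 1.

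All 10 genes were detected in every library. Per kb of annotated exon, the mean level over the 24 libraries was highest for Krt18 at 5727 normalized counts per kb, followed by Krt8 at 4343, Epcam at 3887, Krt19 at 2005 and Cdh1 at 1125. Esrp2 at 468, Esrp1 at 450, Ap1m2 at 413, Rab25 at 349 and Grhl2 at 141 normalized counts per kb were lower. Structural genes of the cytoskeleton and cell surface thus stood above the splicing, sorting and transcription factors. Exon lengths were taken from GENCODE, so this order rests on the annotated length of each gene.

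The surface proteins are described first. Epcam encodes an adhesion protein of the lateral membrane and is the usual handle for sorting epithelial cells. Epcam stood at 8992, 4964, 7477 and 5124 normalized counts in lung controls 1 to 4, at 12187, 11317, 7651 and 12996 in lung Ift88 mutants and at 7039.7, 4801, 8772 and 4121 in lung Cenpj mutants. Its intestine values were 7744, 5116, 9048 and 9673 in controls, 6342, 14463, 9674 and 15575 in Ift88 mutants and 8342, 8363, 8251 and 6725 in Cenpj mutants. The Ift88 mutants held the highest Epcam values of each organ, but libraries of all groups overlapped within each organ. Cdh1 encodes E-cadherin, the core of the adherens junction. Cdh1 stood at 7816, 2307, 5190.2 and 2834 normalized counts in lung controls, at 6361, 4411, 3284 and 10316 in lung Ift88 mutants and at 4362, 3129, 4542 and 1911 in lung Cenpj mutants. In intestine Cdh1 was 7085, 1514, 7914 and 4996 in controls, 2522, 7009, 3964 and 11357 in Ift88 mutants and 7215, 3610.2, 6044 and 3812 in Cenpj mutants. Cdh1 varied most of the 10 genes between libraries of a group, with a within-group SD of 0.80 on the log2 scale.

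Esrp1 and Esrp2 encode splicing regulators that keep epithelial isoforms, such as that of Fgfr2. Esrp2 stood at 3423, 2292, 2451 and 1844 normalized counts in lung controls, at 3628, 3058, 2269 and 4421 in lung Ift88 mutants and at 1449, 967, 2017 and 1091 in lung Cenpj mutants. Every lung Ift88 mutant lay above every lung Cenpj mutant, and only lung Cenpj mutant 3 reached above the lowest lung control. In intestine Esrp2 was 1634, 1024, 2305 and 1461 in controls, 1299, 2214, 2128 and 2768 in Ift88 mutants and 1324, 1367, 1214 and 1108 in Cenpj mutants, with all 3 groups overlapping. Esrp1 ranged from 1576 in lung Cenpj mutant 4 to 4868 in lung Ift88 mutant 4 among lung libraries, and from 1223 in intestine control 2 to 5132 in intestine Ift88 mutant 4. Group means of Esrp1 lay between 2028 ± 359 (SD, n = 4) in lung Cenpj mutants and 3551 ± 1162 (SD, n = 4) in lung Ift88 mutants.

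Ap1m2 encodes the epithelial mu subunit of the AP-1 clathrin adaptor, which sorts proteins to the basolateral membrane, and Rab25 encodes a small GTPase of apical recycling. Ap1m2 stood at 1758, 935, 1054 and 784 normalized counts in lung controls, at 2186, 2095, 1526 and 1856 in lung Ift88 mutants and at 1054, 1157, 2038 and 1045 in lung Cenpj mutants. In intestine its values were 739, 625, 1223 and 893 in controls, 683, 2027, 1203 and 1813 in Ift88 mutants and 1224, 1245, 928 and 997 in Cenpj mutants. Lung control 1 and lung Cenpj mutant 3 were the only lung libraries outside the Ift88 group to reach its range. Rab25, the lowest of the 10 genes in counts, stood at 374, 501, 437 and 442 in lung controls, at 589.6, 781, 627 and 929 in lung Ift88 mutants and at 578, 412, 491 and 339 in lung Cenpj mutants. Here all 4 lung Ift88 mutants lay above every other lung library. In intestine, Rab25 ranged from 464 to 710.4 in controls, from 453 to 1077 in Ift88 mutants and from 393 to 563 in Cenpj mutants, and the groups overlapped. Grhl2 encodes a Grainyhead factor that activates Cdh1, claudin and other junction genes. Its group means ran from 769.6 ± 227 (SD, n = 4) in intestine Cenpj mutants to 1613 ± 608 (SD, n = 4) in lung Ift88 mutants, and the single libraries from 405 in intestine control 2 to 2332 in lung Ift88 mutant 4.

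Krt8 and Krt18 separated the organs almost completely. Krt8 encodes the type II partner and Krt18 the type I partner of the main filament of simple epithelia. Krt8 stood at 4686, 4478, 5318 and 3533 normalized counts in lung controls, at 5676, 6617, 5331 and 6764 in lung Ift88 mutants and at 3832, 4206, 6713 and 3653 in lung Cenpj mutants. In intestine it was 11028, 8732, 13110.0 and 10828 in controls, 8495, 15002, 10590.5 and 16759 in Ift88 mutants and 11237, 14269.9, 13019.6 and 10218 in Cenpj mutants. The lowest intestine library for Krt8 lay above the highest lung library. Krt18 stood at 5746, 7158, 5596 and 5031 in lung controls, at 6679, 6735, 5521 and 5576 in lung Ift88 mutants and at 4905, 4891, 9619 and 5476 in lung Cenpj mutants. Its intestine values were 9165, 10549, 12271 and 9143 in controls, 8627, 10667, 8479 and 11377 in Ift88 mutants and 9883, 13775, 10879 and 9762 in Cenpj mutants. A single lung library, Cenpj mutant 3, entered the intestine range of Krt18. Krt19 encodes a small type I keratin of simple ducts and of mesothelium. It stood at 2100.4, 1592, 1465 and 4314 normalized counts in lung controls, at 3354, 3740.1, 3511 and 3017 in lung Ift88 mutants and at 4562, 3686, 2418 and 4012 in lung Cenpj mutants. In intestine Krt19 was 3692, 1572, 2299.7 and 4119.6 in controls, 5011, 8052, 6258 and 7862 in Ift88 mutants and 5093, 2390.4, 2456 and 2678 in Cenpj mutants. All 4 intestine Ift88 mutants lay above all 4 intestine controls, and 1 Cenpj mutant just exceeded the lowest of them.

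**Figure D1:**
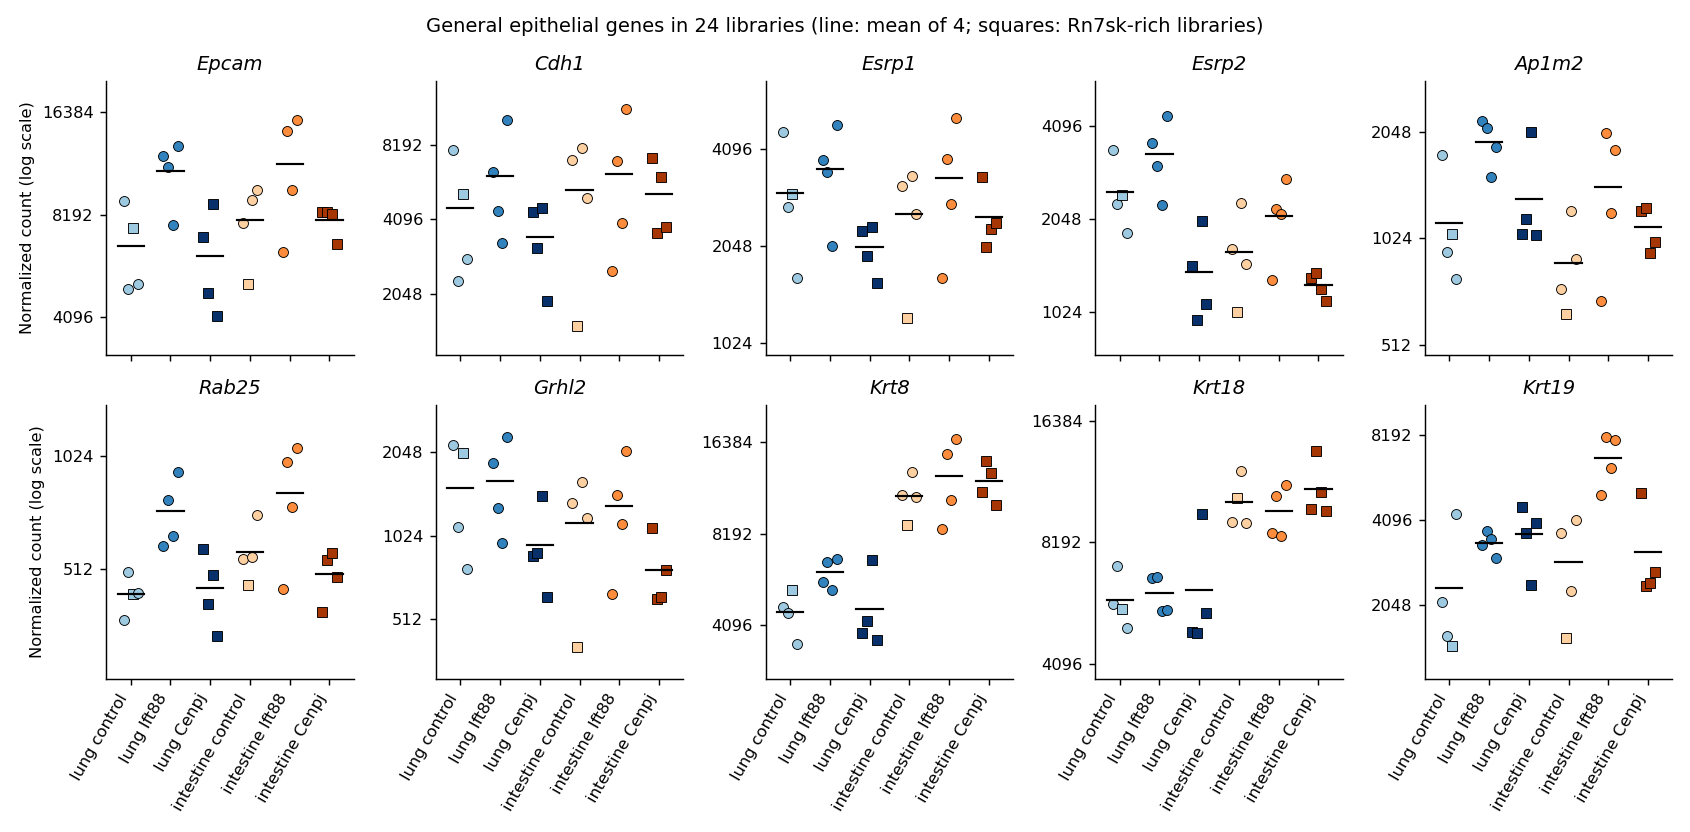
Normalized counts (log scale) of each of the 10 genes in the 24 libraries, grouped by organ and genotype, with a line at each group mean and squares for the 10 libraries rich in Rn7sk. Krt8 separates the organs, Krt18 does so except for lung Cenpj mutant 3 (9619), and Krt19 is highest in intestine Ift88 mutants (5011 to 8052). The lowest intestine library for Epcam, Cdh1, Esrp1, Esrp2, Ap1m2, Grhl2 and Krt19 is intestine control 2, the only intestine control rich in Rn7sk.

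When the 6 group means of each gene were put in order, neighbouring groups overlapped in all 5 steps for 8 of the 10 genes. The exceptions were Krt8, for which intestine controls lay wholly above lung Ift88 mutants, and Krt19, for which intestine Ift88 mutants lay wholly above lung Cenpj mutants. An Ift88 mutant group had the highest mean for 9 of the 10 genes: that of intestine for Epcam, Cdh1, Rab25, Krt8 and Krt19, and that of lung for Esrp1, Esrp2, Ap1m2 and Grhl2. Krt18 was highest in intestine Cenpj mutants, at 11075 ± 1868 normalized counts (SD, n = 4). Shares of all genes with such overlaps or orders are not given here, so these counts are not shown to be particular to the 10 genes. Most of the 10 varied together between libraries, as described below, so they are not counts of independent results either. The highest group mean exceeded the lowest by 1.75-fold (Esrp1) to 2.87-fold (Krt19).

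Averaging log2(value + 1) over the 10 genes, each centred on its mean over all libraries, gave a level per library. This average ran from -0.73 in intestine control 2 to 0.92 in intestine Ift88 mutant 4. Its group means were -0.20 ± 0.30 in lung controls, 0.27 ± 0.29 in lung Ift88 mutants and -0.34 ± 0.32 in lung Cenpj mutants (SD, n = 4). In intestine they were -0.05 ± 0.46 in controls, 0.37 ± 0.56 in Ift88 mutants and -0.05 ± 0.15 in Cenpj mutants (SD, n = 4). Spread within a group was thus of the size of the differences between groups. The keratins and the other genes gave different pictures, although this split was made after the values had been seen. Over the 3 keratins the intestine libraries lay between -0.15 and 0.97 and the lung libraries between -0.73 and -0.09, with a small overlap. Of these 3, Krt19 taken alone did not separate the organs. Over the 7 other genes the organs overlapped widely, from -0.98 to 0.89 in intestine and from -0.78 to 0.92 in lung.

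**Figure D2:**
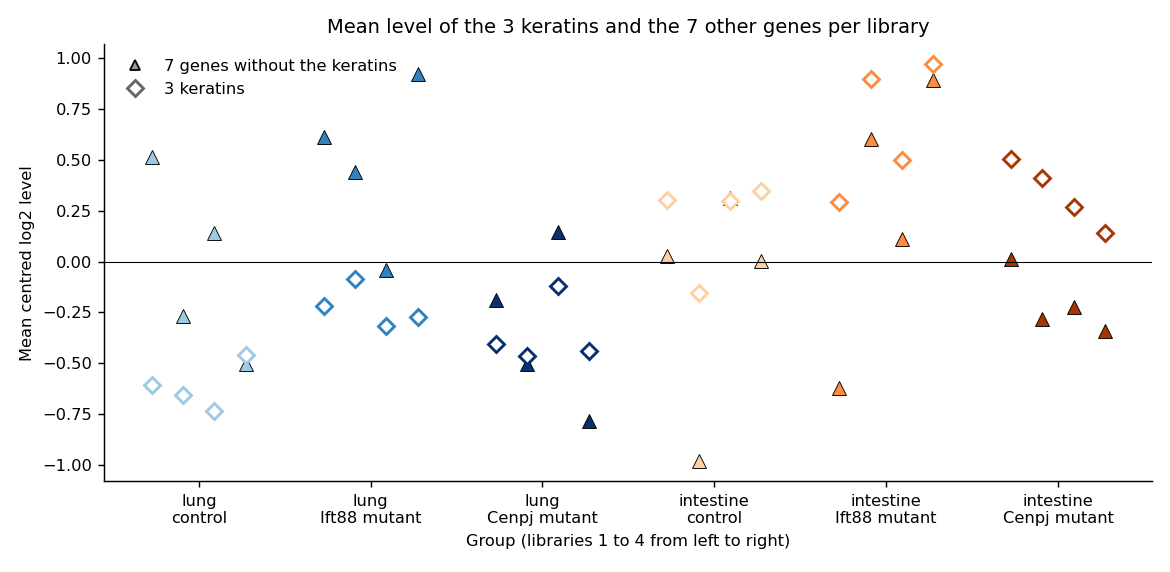
Mean centred log2 level per library of the 7 genes that are not keratins (triangles) and of the 3 keratins (diamonds), by group, with libraries 1 to 4 of each group from left to right. The mean of the 3 keratins lies mostly lower in lung (-0.73 to -0.09) than in intestine (-0.15 to 0.97), with a small overlap. Krt19 alone does not separate the organs. The 7 other genes range from -0.98 in intestine control 2 to 0.92 in lung Ift88 mutant 4 with no separation by organ.

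Control lung was set against control intestine to ask whether the 10 genes differ between organs without a mutation. Krt8 and Krt18 were lower in lung, and the other 8 did not pass the threshold (limma on log2(value + 1), all 24 libraries, adjusted p under 0.05). Against these 2 of 10 genes, 5.33% of the 32098 genes tested passed in this comparison in either direction, and 2.73% were lower in lung. Krt8 averaged 4504 ± 739 in lung controls and 10925 ± 1789 in intestine controls (SD, n = 4), a log2 difference of -1.28 ± 0.19 (SE) with an adjusted p of 2.96e-05. Krt18 averaged 5883 ± 904 and 10282 ± 1480 (SD, n = 4), a log2 difference of -0.81 ± 0.17 (SE) with an adjusted p of 0.00219. Esrp2 had an estimate of 0.66 ± 0.25 (SE) on the log2 scale, higher in lung, with an adjusted p of 0.159, and was the only other 1 of the 10 with an unadjusted p under 0.05, as had 14.6% of all genes tested. Krt8 and Krt18 passed in every alternative run, including each fit without 1 library. In the authors' deposited table the FDR of this comparison was 1.42e-08 for Krt8 and 3.26e-04 for Krt18.

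Other epithelial genes also differed between the control organs. Of 9 other keratins, 4 were higher and 1 lower in lung, among them Krt7, a keratin of simple ducts, which averaged 9431 ± 1875 in lung and 4242 ± 1909 in intestine (SD, n = 4), with a log2 difference of 1.25 ± 0.24 (SE). Krt20, a keratin of intestinal epithelium, was lower in lung, with a log2 difference of -2.74 ± 0.49 (SE). Of 20 other junction and polarity genes, 2 were higher and 1 lower in lung, and the lower was the desmosomal cadherin Dsg2 (-1.48 ± 0.20, SE). Of 19 other epithelial regulators and proteases, 2 were lower in lung, including the transcription factor Klf5 (-2.89 ± 0.44, SE). Of 6 Zeb, Snail and Twist repressors, 3 were higher in lung (summed level 50188 to 59222 normalized counts in lung controls against 22399 to 30764 in intestine controls). Of 12 mesenchymal genes 5 were higher and 2 lower in lung (599248 to 911284 against 444515 to 631892), and of 8 mesothelial genes 2 were higher and 1 lower (31670 to 63171 against 21904 to 35031). Of 6 endothelial and 7 erythroid genes 1 each was higher, and 3 of 5 enteric neural crest, 2 of 5 liver and 4 of 6 pancreatic genes were lower in lung. The part of these cell types in the Krt8 and Krt18 results was not tested. The median log2 difference was -0.21 over the 10 genes, -0.16 over the junction genes and 0.00 over all genes tested.

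In lung, the comparison of Ift88 mutant with control found all 10 genes higher on average in the mutant, and none passed the threshold. The estimates ran from 0.06 to 0.81 on the log2 scale with a median of 0.45, against a median of 0.00 over all 31361 genes tested, of which 1.07% passed. Of the 10 genes, 5 had an unadjusted p under 0.05 in limma, against 12.2% of all genes tested. Most of the 10 genes varied together between libraries, as described below, so counts of them are not counts of independent results. EdgeR called 0 of the 10, and DESeq2 called 1, Rab25, against 3.1% of all genes. In the authors' deposited table Rab25 had a 1.67-fold higher level in Ift88 mutants with an FDR of 0.0469. The 5 were Ap1m2 at 0.81 ± 0.24 (SE, adjusted p 0.108), Epcam at 0.75 ± 0.22 (SE, adjusted p 0.117) and Rab25 at 0.72 ± 0.23 (SE, adjusted p 0.159), with Krt19 at 0.66 ± 0.25 (SE, adjusted p 0.246) and Krt8 at 0.45 ± 0.17 (SE, adjusted p 0.239). Without lung control 1 Ap1m2 passed (adjusted p 0.0308, limma), and without lung control 4 Krt19 passed (adjusted p 0.00377, limma). Without another library their adjusted p reached up to 0.303 and 0.552, and with library kind as a term it was 0.387 and 0.633 (limma). Of 20 other junction and polarity genes 13 had positive estimates (median 0.38), as had 13 of 19 regulators and proteases (median 0.15). Of the junction genes 1 fell and none rose, the desmosome linker Dsp (-0.93 ± 0.17, SE, adjusted p 0.0107, limma). Shroom3, which drives apical constriction, was the only regulator or protease to pass, and it fell (-0.81 ± 0.15, SE, adjusted p 0.0114, limma). Dsp lost its call without lung Ift88 mutant 1, and Shroom3 without lung Ift88 mutant 1 or 2, with adjusted p of 0.0569 and up to 0.0574 (limma). Each also lost its call in 1 of 9 other alternatives.

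Markers of blood cells moved with the same groups. Of 7 erythroid genes 4 fell in lung Ift88 mutants, where their summed level was 221477 to 358484 normalized counts against 472225 to 1501485 in lung controls, and none of the 7 was at 0 in any library. Of 6 Zeb, Snail and Twist repressors 1 rose and 1 fell, and their summed level was 59176 to 69629 against 50188 to 59222 in controls. Of 6 endothelial and 6 macrophage genes 1 each rose, with summed levels of 37816 to 63343 against 35462 to 58405 and of 9336 to 10448 against 5751 to 9905. All 5 enteric neural crest genes had negative estimates and none passed, and their summed level was 1773 to 3195 against 4384 to 16517, with no overlap. Of 4 pancreatic genes tested 1 fell, with a summed level over the list of 870.4 to 1183 against 565 to 1993. In this list Pdx1 averaged 0 in every lung group, and Rbpjl averaged 485 normalized counts in lung controls against 183 in intestine controls. In lung the list is therefore not a gauge of pancreatic cells. Of these lists only the pancreatic one held genes at 0 in some library, 5 of its 6, and the part of these cell types in the estimates of the 10 genes was not tested.

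In the comparison of Cenpj mutant with control in lung, none of the 10 genes passed, against 0.513% of the 31361 genes tested. Estimates ran from -0.88 to 0.74 on the log2 scale with a median of -0.06, against 0.00 over all genes tested. In limma 2 of the 10 had an unadjusted p under 0.05, against 3606 of the 31361 genes tested. EdgeR called 0 of the 10, and DESeq2 called 1, Esrp2, against 2.4% of all genes. Esrp2 was at -0.88 ± 0.23 (SE), an average of 1381 ± 471 in Cenpj mutants against 2502 ± 665 in controls (SD, n = 4), with an adjusted p of 0.0934 in limma. In the authors' deposited table its FDR was 0.0314. Esrp2 passed without lung control 4 (adjusted p 0.0391, limma) and without lung Cenpj mutant 3 (adjusted p 0.0422, limma), and reached up to 0.28 without another library. Krt19 was at 0.74 ± 0.25 (SE), with an adjusted p of 0.222, or 0.00704 without lung control 4 and up to 0.42 without another library (limma). With library kind as a term the adjusted p was 0.498 for Esrp2 and 0.264 for Krt19 (limma). Every lung Cenpj mutant, but of the lung controls only control 3, was rich in Rn7sk. None of the 20 junction genes, 19 regulators and proteases, 9 other keratins and 10 endoderm regulators passed. Of 12 mesenchymal genes 1 rose, with a summed level of 638513 to 817296 normalized counts against 599248 to 911284 in controls. Of 6 macrophage genes 1 rose, with a summed level of 8513 to 11849 against 5751 to 9905. Of 4 pancreatic genes tested Rbpjl alone fell, with a summed level over the list of 457 to 667 against 565 to 1993. No mesenchymal or macrophage gene was at 0 in any library, 5 of 6 pancreatic genes were in some, and the part of these cell types was not tested. Among the epithelial lists 17 of 19 regulators and proteases (median -0.32) and 9 of 10 endoderm regulators (median -0.86) had negative estimates, and 13 of 20 junction genes (median -0.05).

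Between the mutants in lung, 9 of the 10 genes had negative estimates, that is, lower levels in Cenpj mutants. Esrp2 and Epcam were lower in Cenpj mutants than in Ift88 mutants, and the other 8 did not pass, against 1.8% of genes tested in either direction and 1.12% lower in Cenpj mutants. Esrp2 averaged 1381 ± 471 in Cenpj mutants and 3344 ± 909 in Ift88 mutants (SD, n = 4), a log2 difference of -1.29 ± 0.23 (SE) with an adjusted p of 0.00523. Epcam averaged 6183 ± 2129 and 11038 ± 2360 (SD, n = 4), a log2 difference of -0.87 ± 0.22 (SE) with an adjusted p of 0.0496. At an unadjusted p under 0.05 stood 12.1% of all genes tested and 8 of the 10, the further 6 being Esrp1 (-0.76 ± 0.26, SE), Grhl2 (-0.75 ± 0.32, SE), Cdh1 (-0.75 ± 0.35, SE), Rab25 (-0.69 ± 0.23, SE), Ap1m2 (-0.58 ± 0.24, SE) and Krt8 (-0.44 ± 0.17, SE). Most of the 10 genes varied together between libraries, as described below, so these 8 are not separate results. The median of the 10 was -0.72 on the log2 scale, against 0.00 over all genes tested.

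Esrp2 passed without any 1 library (adjusted p 0.00172 to 0.0317). Epcam lost its call without lung Ift88 mutant 1, 2 or 4 or lung Cenpj mutant 2 or 4, with adjusted p of 0.146 to 0.173, and in 6 other alternatives. With library kind as a term neither passed: Esrp2 was at -1.30 with an adjusted p of 0.557 and Epcam at -1.16 with an adjusted p of 0.644 (limma). In this fit the kinds are told apart only through lung control 3, so genotype and library kind cannot be told apart in this comparison. Erythroid genes again moved, with 4 of 7 higher in Cenpj mutants (summed level 511478 to 1671050 against 221477 to 358484 normalized counts). Of 4 pancreatic genes tested Rbpjl alone was lower in Cenpj mutants (summed level over the list 457 to 667 against 870.4 to 1183, with no overlap). This list is not a gauge of pancreatic cells in lung, as stated above, and the part of other cell types was not tested.

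Most genes close in function had negative estimates in the direct comparison in lung, as the 10 genes did. This held for 16 of 20 other junction and polarity genes (median -0.43 on the log2 scale), 15 of 19 regulators and proteases (median -0.53) and 6 of 10 endoderm regulators (median -0.94), but for 4 of 9 other keratins (median 0.00). Few of them passed the threshold. Of the 20 other junction and polarity genes 2 fell and 1 rose in Cenpj mutants relative to Ift88 mutants. Cgn, the tight junction protein cingulin, was lower (-1.36 ± 0.18, SE, adjusted p 4.93e-04, limma), as was Marveld3 (-1.20 ± 0.30, SE, adjusted p 0.0465, limma), while Dsp was higher (0.73 ± 0.17, SE, adjusted p 0.0278, limma). Grhl3, a relative of Grhl2, was higher (1.44 ± 0.35, SE, adjusted p 0.037, limma), and it was the only 1 of 19 regulators and proteases to pass. Of 10 endoderm regulators Nkx2-1 (-1.50 ± 0.23, SE, adjusted p 0.00155, limma) and Foxa1 (-1.48 ± 0.36, SE, adjusted p 0.0375, limma) were lower. Of these 6 genes, only Cgn and Nkx2-1 passed in every fit without 1 library, and none of the 6 passed with library kind as a term. Dsp, Foxa1, Grhl3 and Marveld3 lost their calls in 6, 5, 7 and 8 of the 12 fits, each without lung Ift88 mutant 1, 2 or 4 and without lung Cenpj mutant 2 or 4 among others, with adjusted p of up to 0.173 (limma).

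In intestine, the comparison of Ift88 mutant with control turned on Krt19. Krt19 rose from 2921 ± 1188 in controls to 6796 ± 1437 in Ift88 mutants (SD, n = 4), a log2 fold change of 1.29 ± 0.27 (SE) with an adjusted p of 0.0382. It was the 1 of 10 genes to pass, against 0.719% of the 31592 genes tested in either direction and 0.399% higher. Ap1m2 (0.65 ± 0.28, SE) and Epcam (0.50 ± 0.23, SE) also had an unadjusted p under 0.05, as had 13.4% of all genes tested, with adjusted p of 0.316 and 0.352 in limma. Estimates of the 10 ran from -0.07 to 1.29 with a median of 0.37, against 0.06 over all genes tested. Krt19 lost its call in 8 of 12 fits without 1 library, with adjusted p of up to 0.147, and when library kind was added to the fit (1.03, adjusted p 0.18, limma). The fits in which it lost its call left out any of intestine controls 1 to 3, any of the Ift88 mutants, or Cenpj mutant 4. It passed in edgeR (adjusted p 0.0362) and DESeq2 (adjusted p 0.0208), and the authors' deposited table gave a 2.33-fold rise with an FDR of 0.00458.

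Among 9 other keratins 2 rose with Krt19 in intestine Ift88 mutants. Krt7 rose from 4242 ± 1909 to 9135 ± 1059 (SD, n = 4), a log2 fold change of 1.22 ± 0.27 (SE, adjusted p 0.0431, limma). Krt15, a keratin of stratified epithelia, rose from 115 ± 67.2 to 709 ± 145 (SD, n = 4), a log2 fold change of 2.95 ± 0.60 (SE, adjusted p 0.035, limma). Krt7 lost its call in 8 of the 12 fits without 1 library and Krt15 in 6, both of them without any of intestine controls 1 to 3 or Ift88 mutants 1 to 3, and Krt7 also without Cenpj mutant 3 or 4, with adjusted p of up to 0.168 (limma). Summed over the 9 keratins, the level was 9710.0 to 12969 normalized counts in Ift88 mutants and 3044 to 7915 in controls, with 6 of the 9 genes at 0 in some library. None of 20 junction genes, 19 regulators and proteases and 10 endoderm regulators passed, while 14, 16 and 9 of them had positive estimates (medians 0.19, 0.35 and 0.20).

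Other cell types moved with these intestine groups as well. Of 7 erythroid genes 3 fell, with a summed level of 153062 to 218496 normalized counts in Ift88 mutants against 195860 to 590333 in controls. The summed level of 12 mesenchymal genes was 676071 to 793430 in Ift88 mutants against 444515 to 631892 in controls, and none of the 12 passed. Mesothelium, which also makes keratins 7 and 19, had a summed level over 8 genes of 28116 to 57262 in Ift88 mutants against 21904 to 35031 in controls. All 8 mesothelial genes had positive estimates (median 0.62 on the log2 scale), and none of the 8 passed. Of 6 pancreatic genes 1 fell, with a summed level of 1226 to 2431 against 1253 to 15147. Msln was the only mesothelial gene at 0 in some library, 5 of the 6 pancreatic genes were, and no erythroid or mesenchymal gene was. The part of these cell types in the Krt19 result was not tested.

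Cenpj mutants and controls did not differ in the 10 genes of intestine at the threshold. None of the 10 passed, against 0% of the 31592 genes tested. No gene passed in limma or edgeR, 54 passed in DESeq2, and 1616 genes (5.12%) had an unadjusted p under 0.05 in limma. Of the 10 genes, none had an unadjusted p under 0.05, and edgeR and DESeq2 called 0. Estimates ran from -0.43 to 0.37 on the log2 scale, with a median of 0.08 against 0.01 over all genes tested. The 95% intervals of the 10 were wide, from -0.44 to 0.52 for Epcam and from -0.81 to 1.06 for Cdh1, so changes of that size were not detectable here.

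Between the mutants in intestine, Krt19 was lower in Cenpj mutants, at 3154 ± 1298 against 6796 ± 1437 (SD, n = 4), with a log2 difference of -1.16 ± 0.27 (SE) and an adjusted p of 0.0334. It was the 1 of 10 genes to pass, against 2.19% of genes tested in either direction and 1.21% lower. Esrp2 (-0.70 ± 0.23, SE, adjusted p 0.115, limma) and Rab25 (-0.66 ± 0.26, SE, adjusted p 0.209, limma) also had an unadjusted p under 0.05, as had 15.6% of all genes tested. DESeq2 called Esrp2 too (adjusted p 0.0318), and 5.87% of all genes. In the authors' deposited table the FDR was 0.0453 for Esrp2, 0.0338 for Rab25 and 0.00731 for Krt19. The median of the 10 was -0.38, against -0.03 over all genes tested. Krt19 lost its call in 6 of 12 fits without 1 library, namely those without Ift88 mutant 2, 3 or 4 or Cenpj mutant 2, 3 or 4, with adjusted p of up to 0.124. With library kind as a term it was at -0.10 with an adjusted p of 0.95 (limma), and genotype and kind cannot be told apart here either. Krt7 and Krt15 were also lower in Cenpj mutants, at -1.04 ± 0.27 and -2.67 ± 0.60 (SE) on the log2 scale, and lost their calls in 8 and 5 of the 12 fits without 1 library. Of 12 mesenchymal genes 1 was higher and 2 lower (summed level 492190.3 to 726370 in Cenpj mutants against 676071 to 793430), and 4 of 7 erythroid genes were higher (summed level 199757 to 778988 against 153062 to 218496 normalized counts). Of 6 endothelial genes 1 was higher (summed level 36223 to 50043 against 28807 to 40959), as was 1 of 6 pancreatic genes (3268.5 to 14544 against 1226 to 2431). The part of these cell types was not tested.

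**Figure D3:**
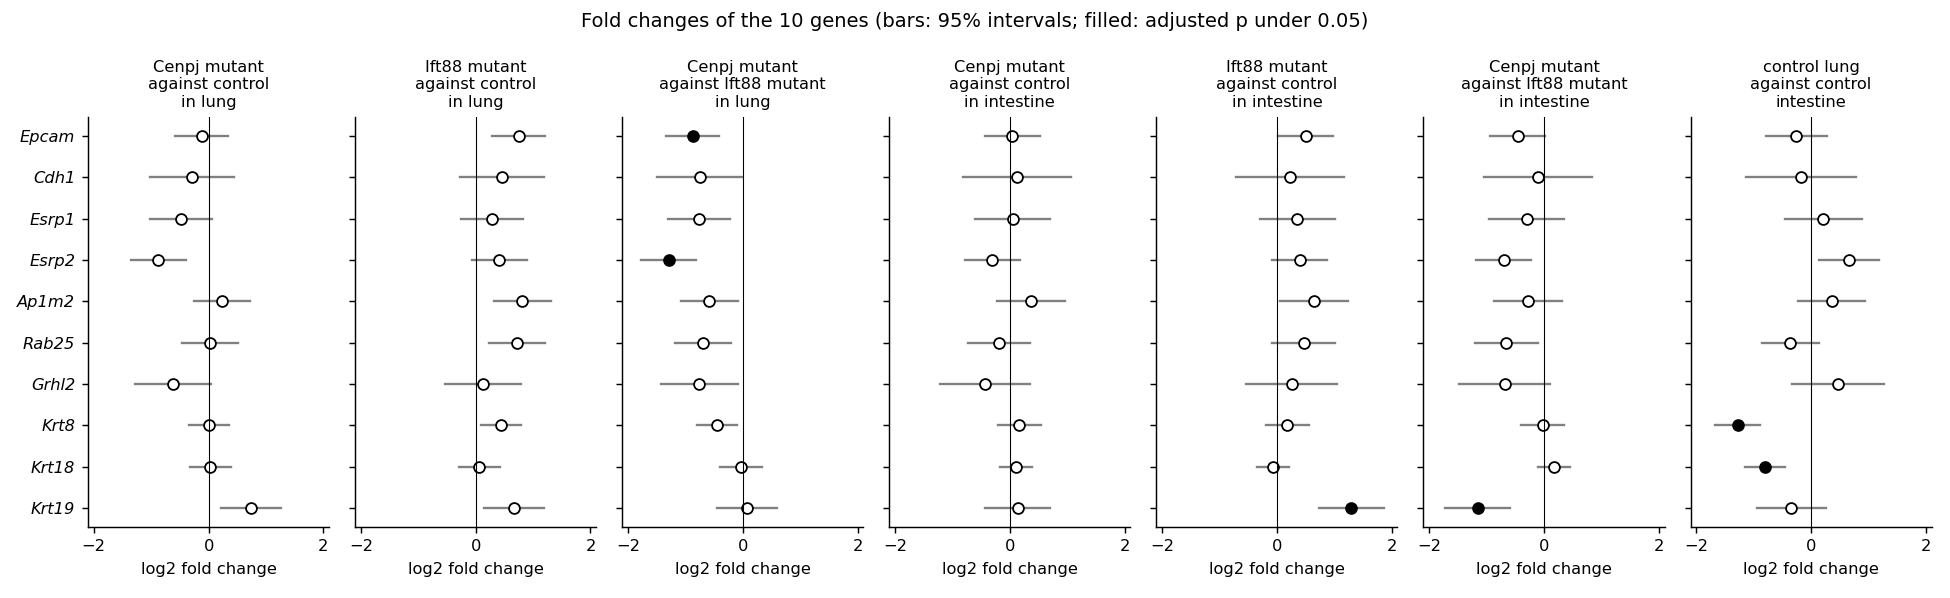
Log2 fold changes of the 10 genes with 95% intervals in 7 comparisons, from limma, with filled circles where the adjusted p was under 0.05. Filled circles are Esrp2 and Epcam between the mutants in lung, Krt19 in 2 intestine comparisons, and Krt8 and Krt18 between the control organs.

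Whether a mutation acted differently in the 2 organs was tested as the difference of the effects. For Cenpj none of the 10 genes passed, against 0% of the 32098 genes tested, and for Ift88 none passed, against 0.0125%. In neither test did any of the 10 have an unadjusted p under 0.05 in limma, against 4.76% of all genes for Cenpj and 7.27% for Ift88, and edgeR and DESeq2 called 0 in both. For Cenpj no gene at all passed in limma or edgeR, 44 passed in DESeq2, and 1528 had an unadjusted p under 0.05 in limma. The estimates ran from -0.58 to 0.60 for Cenpj and from -0.63 to 0.26 for Ift88 on the log2 scale. The rise of Krt19 in intestine Ift88 mutants is therefore not shown to differ from its estimate in lung.

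How the 10 genes varied between libraries of one group was described with deviations from each group mean, which remove genotype and organ. The 24 libraries of this description share their group means in sets of 4, and each was normalized as a whole, so correlations are given without a p. Epcam followed the mean of the 9 other genes most closely, with a Pearson r of 0.939 (Spearman 0.924), and only 2 of 16377 genes with a mean of 100 or more had a higher r. Esrp1 (0.92), Grhl2 (0.903), Cdh1 (0.897) and Esrp2 (0.894) were among the 15 highest ranks, and Ap1m2 (0.824) ranked 49. Krt8 was at 0.782 and Rab25 at 0.552. Krt18, at 0.321, ranked 3888, and Krt19, at 0.094, ranked 7045. Without the 2 libraries farthest from the median of the other 9 genes, r was 0.921 for Epcam, 0.33 for Rab25, 0.363 for Krt18 and -0.23 for Krt19.

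Pairs of genes showed the same grading. Among Epcam, Cdh1, Esrp1, Esrp2, Ap1m2 and Grhl2 the 15 pairs had r of 0.692 to 0.943, with a median of 0.85, and the highest was Esrp1 with Grhl2. These 6 genes were picked after their correlations had been seen. Over all 45 pairs r ran from -0.454 to 0.943. Krt8 and Krt18, whose proteins pair in the filament, had an r of 0.722, while Krt18 with Krt19, both of type I, gave -0.454. Krt19 had no r above 0.272 with any of the other 9. The within-group SD on the log2 scale was 0.80 for Cdh1, 0.65 for Grhl2 and 0.54 for Esrp1, and 0.31 for Krt8 and 0.27 for Krt18, so keratins 8 and 18 varied less between libraries of a group. Among libraries rich in Rn7sk, where only the 8 Cenpj mutants have a library of the same group and kind to deviate from, r with the other 9 genes was 0.918 for Epcam and 0.746 for Cdh1. Among the other 14 libraries it was 0.959 for Epcam and 0.901 for Cdh1.

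**Figure D4:**
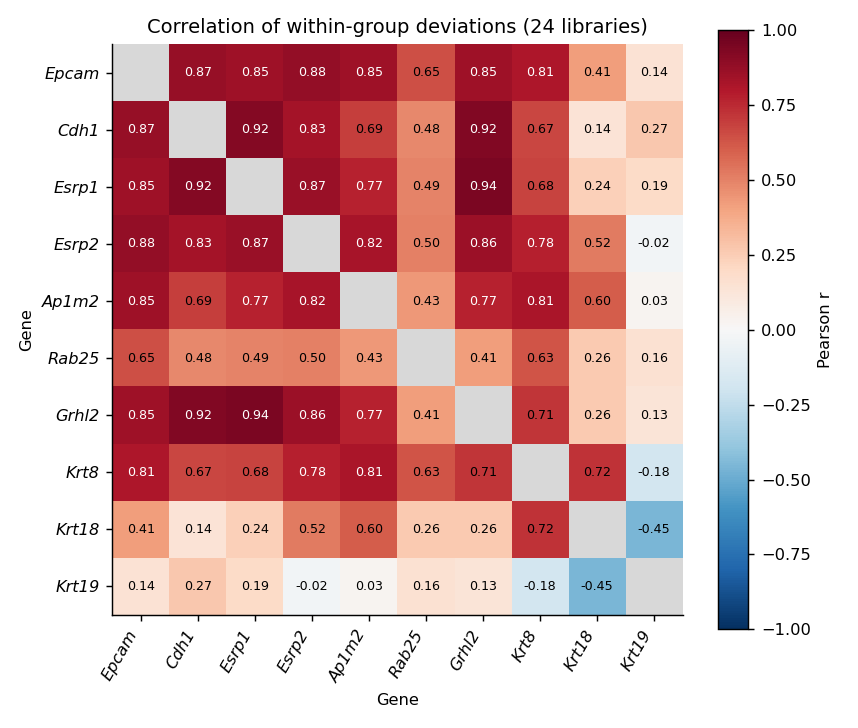
Pearson r of within-group deviations of log2(value + 1) over 24 libraries for each pair of the 10 genes. The block from Epcam to Ap1m2 with Grhl2 holds r of 0.692 to 0.943, whereas Krt19 reaches no more than 0.272 with any other gene.

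Genes outside the 10 with a mean of 100 or more were ranked by how like their deviations were to the mean of the general epithelial genes. Predicted genes and genes with only a number or clone for a name were left out of this and the next rankings. The 10 most alike were Grb7 (0.955), Foxa1 (0.927), Stard10 (0.925), Crb3 (0.92), Cldn6 (0.919), Irx5 (0.911), Lad1 (0.904), Hip1r (0.903), Cldn3 (0.899) and Bspry (0.897). Foxa1 encodes an endodermal pioneer factor, Crb3 an apical polarity protein, Cldn6 and Cldn3 tight junction proteins and Grb7 an adaptor of receptor tyrosine kinases. Of these, Crb3, Cldn6 and Cldn3 were also on the list of other junction genes and Foxa1 on that of endoderm regulators. Krt18 and Krt19 kept other company, which was looked up after their low r had been seen. The genes most like Krt18 were Bex4 (0.84), Mtap (0.839), Ruvbl2 (0.836), Prmt5 (0.836) and Ahcy (0.833). Mtap and Ahcy encode enzymes of methionine metabolism and Prmt5 an arginine methyltransferase. The genes most like Krt19 were Rin2 (0.881), Tgm2 (0.868), Myo1c (0.859), Col3a1 (0.859) and Col5a2 (0.849), of which the last 2 encode fibrillar collagens of mesenchyme.

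The same measure was taken for lists of genes of other cell types. Of 19 other junction and polarity genes with a mean of 100 or more, 18 had an r above 0 with the mean of the 10 genes, with a median of 0.77, and of 16 regulators and proteases 15 did, with a median of 0.692. Cldn7 (0.869), Cgn (0.851) and Ocln (0.844), all of tight junctions, and the membrane protease St14 (0.895) with its inhibitor Spint1 (0.882) stood among the highest. Pard6b, a polarity protein, was the junction gene below 0, at -0.405. Endoderm regulators had a median of 0.631 over 10 genes, from 0.927 for Foxa1 to -0.741 for Gata6, which mesenchyme of both organs also makes. All 7 mesothelial genes with a mean of 100 or more lay below 0, with a median of -0.591, from -0.243 for Upk1b to -0.789 for Bnc1. Msln, left out for its mean of 91.0, was at 0.037. All 6 macrophage genes lay below 0 as well, with a median of -0.382. The 12 mesenchymal genes were evenly split around a median of 0.02, against a median of 0.027 over all 16377 genes. The medians were 0.402 for endothelial genes, 0.221 for other keratins, 0.192 for erythroid genes, 0.143 for Zeb, Snail and Twist repressors and 0.115 for enteric neural crest genes. They were -0.054 for pancreatic and -0.059 for liver genes. Single genes of the 10 were also set against the mean deviation of all 8 mesothelial genes, here with Msln, which was at 0 in some library. They related to this mesothelial mean with r of -0.564 for Esrp2 and -0.55 for Epcam. Among the keratins, Krt8 was at -0.417 and Krt18 at -0.311. Krt19, at 0.392, was the only gene of the 10 above 0.

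**Figure D5:**
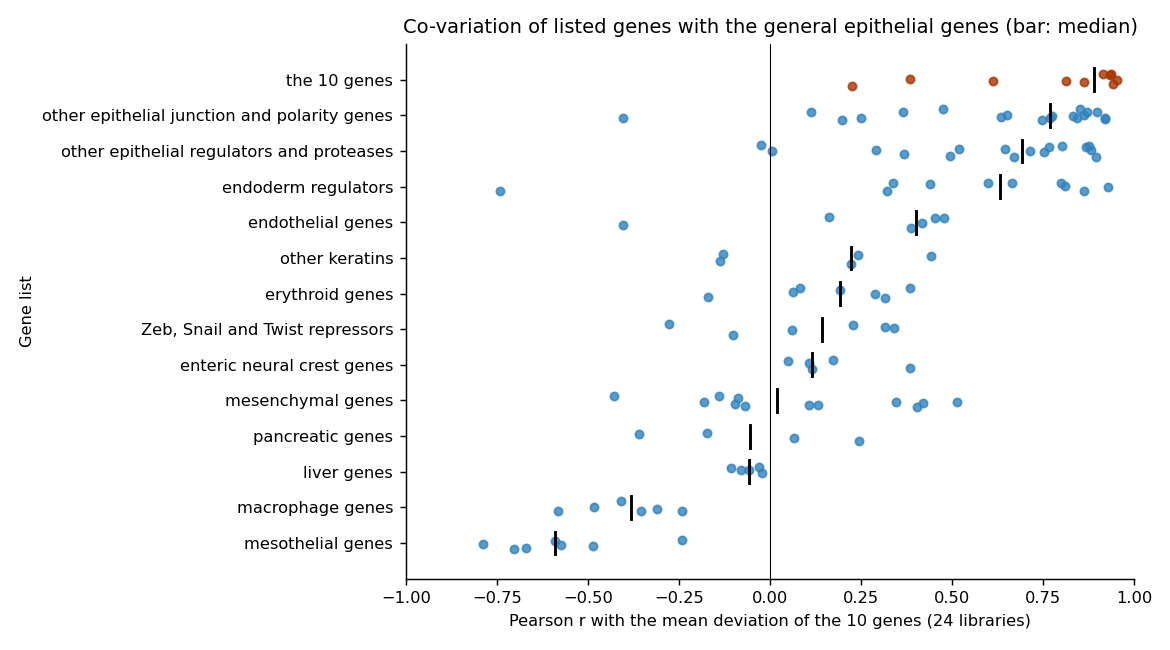
Pearson r over 24 libraries between the within-group deviations of each listed gene (mean of 100 or more) and the mean deviation of the 10 genes, 1 row per gene list with a bar at the median. Junction genes (median 0.77) and endoderm regulators (0.631) lie mostly above 0, and all mesothelial, macrophage and liver genes shown lie below 0. The top row shows the 10 genes against a mean that includes them.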

How the data were processed

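RNA from 24 samples, 4 for each of 3 genotypes in 2 organs, was measured by bulk sequencing. Per the submitters' processing notes, STAR 2.5.2b was among the tools, as was DESeq2 1.16.1, and GRCm38 (mm10) was the build. Which counter and annotation were used is not given in the sources used here. The authors deposited a signal per gene and library, namely read counts divided by 1 factor per library and rounded to 1 decimal, with their own linear fold changes (ratio) and p-values for group comparisons.

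Since the deposited values are normalized, limma 3.58.1 (trend on log2(value + 1), pseudocount 1, genes with a mean of 1 or more, group as the only term, Benjamini-Hochberg over all genes tested, threshold 0.05) was the main test rather than a count test. Within-organ comparisons used 12 libraries, and comparisons across organs 24. Fold changes are on the log2(value + 1) scale, which understates changes of low genes. Whole reads were recovered from the value steps (99.8938% or more of the values above 0 and up to 500 lay within 0.051 of a whole multiple of the step) for edgeR 4.0.16 and DESeq2 1.42.0; in 4 libraries the step was so near 1 that rounding hides it. The main test was checked on simulated data.

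The 10 genes and all gene lists were chosen with earlier results of these data known. All 10 genes were named. From other lists, up to 3 genes with the smallest p among those past the threshold could be named. Here only epithelial lists are named gene by gene in the comparisons, besides Pdx1 and Rbpjl of the pancreatic list for their levels in lung. Fold changes of the 10 genes are given singly where the unadjusted p was under 0.05, and otherwise as ranges. Alternatives were other tests and scalings, a pseudocount of 0.1, no filter, the replicate block, library kind (Rn7sk above 500), other sets of libraries and leaving out each library. Same-numbered lung and intestine controls deviated together (r of 0.244, 0.101, 0.108 and 0.182 over genes with a mean of 100 or more). So did same-numbered intestine controls and intestine Cenpj mutants (0.252, 0.146, 0.08 and 0.257), which differ in genotype. Lung controls and intestine Cenpj mutants also had r above 0 for all 4 numbers (0.193, 0.131, 0.018 and 0.065). Same-numbered lung and intestine Ift88 mutants had r of both signs (-0.035, 0.059, 0.015 and 0.322), as had Cenpj mutants (0.065, -0.109, 0.041 and 0.109). Libraries with different numbers were not compared. Whether numbers pair samples of the same embryos is therefore not shown.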

Additional observations from a re-analysis of the deposited data

Results flagged for a closer look

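In 60 groups of 4 libraries, made by each of the 10 genes in each of the 6 groups, the highest or lowest library was compared with the others. In 4 of them its gap to the nearest library, as a share of the range of the group, exceeded Dixon's 95% critical value, which chance exceeds in about 1 group in 20. Epcam in intestine Cenpj mutant 4 was the lowest of its group at 6725 normalized counts, against 8251 to 8363 in the others. Ap1m2 in lung Cenpj mutant 3 was the highest at 2038 normalized counts, against 1045 to 1157. In the same library Krt18 was the highest at 9619 normalized counts, against 4891 to 5476. Krt19 in intestine Cenpj mutant 1 was the highest at 5093 normalized counts, against 2390.4 to 2678.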

How the results depend on the processing

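Counts of the 10 genes past the threshold were 0, 0 and 2 in lung (Cenpj mutant against control, Ift88 mutant against control, Cenpj against Ift88 mutant), 0, 1 and 1 in intestine, 2 between the control organs and 0 for both differences of effects. In DESeq2 the counts were 1, 1 and 1 in lung and 2 between the mutants in intestine. A pseudocount of 0.1, no filter, and all 24 libraries each left 1 gene between the mutants in lung. No filter left 0 in intestine for Ift88 mutant against control and for Cenpj against Ift88 mutant. With library kind as a term, in 12 or in all 24 libraries, 0 genes remained in these 3 comparisons. Leaving out each library in turn gave 0 to 2 genes for Cenpj mutant against control in lung, 0 to 1 for Ift88 mutant against control in lung, 1 to 3 for Cenpj against Ift88 mutant in lung, and 0 to 1 in both intestine comparisons that had a call. Calls gained between the mutants in lung were Esrp1 without lung Ift88 mutant 3 (adjusted p 0.0464, limma) and Krt8 without lung Cenpj mutant 3 (adjusted p 0.0248, limma).

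Signs changed with library kind as a term for Cdh1 between the mutants in lung (0.0626 in all 24 libraries), and for Esrp2 (0.0865) and Krt7 (0.0518) between the mutants in intestine. The correlation of Krt19 with the other 9 genes, 0.094, was -0.268 in the libraries rich in Rn7sk, -0.023 in the other 14, and -0.129 to 0.321 without each library. The cause was not tested. Of 46 estimates of the 10 genes given only as ranges, 28 changed sign in some refit and none passed the threshold.

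The replicate block put libraries of the same number together over all groups of a fit, and no fit paired the organs within a genotype. With the replicate block the counts of the 10 genes were 0, 0, 2, 0, 1, 1, 2, 0 and 0, in the order given above, and it changed no call among them. Over all genes it raised the calls from 335 to 506 for Ift88 mutant against control in lung, from 227 to 545 for the same comparison in intestine, from 692 to 1151 between the mutants in intestine and from 4 to 20 for the difference of Ift88 effects. Calls over all genes ranged from 36 to 754 over the alternatives for Cenpj mutant against control in lung (161 in the main test), from 16 to 995 for Ift88 mutant (335) and from 36 to 1105 between the mutants (563). In intestine they ranged from 0 to 568 (0), from 25 to 1027 (227) and from 22 to 1855 (692), between control organs from 1169 to 2095 (1711), and for the differences of effects from 0 to 44 (0) and from 0 to 194 (4).

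In each organ only 1 control library was rich in Rn7sk, so genotype and library kind are poorly separated. The lowest value of the 10 genes was 339 normalized counts, in libraries of 96.12 M reads or more, and no fit at a lower depth was run.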
